A study of Mus musculus with 11 samples.

Results

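The TGF-β, BMP and activin pathway was followed through 45 genes in gonadal white adipose tissue of 14-3-3ζKO and WT mice. The genes were picked by name as ligands, latency proteins, receptors, SMADs, antagonists and target genes, and all 45 were found by their symbol among the 42815 loci quantified. RNA was sequenced from 5 14-3-3ζKO and 6 WT samples of male C57Bl/6 mice aged 50 weeks, housed singly. The knockout mice carry null alleles in all cell types, came from heterozygous crosses whose offspring missed the Mendelian ratio, and had littermates as controls. Diet is unsettled, because the labels give chow and the study's text names a low-fat food for the mice of this transcriptome. Levels are FPKM, fragments scaled to transcript length and to library size, so levels of different genes can be compared. Totals per library are not known from the sources used here, so no counting interval can be given.

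Each of the 45 genes has 1 FPKM value per group, pooled over the libraries by the authors. None was among the 86 loci with values per library. No SD, interval or test over libraries can therefore be given for any of them, and the authors' own test columns were not used. The words higher and lower below compare pooled group values whose spread between mice is unknown. As a guide to how far single libraries lay apart, the median SD of log2(FPKM + 1) over the 86 loci was 0.671 among 14-3-3ζKO libraries and 1.38 among WT libraries, and the median SE of the difference was 0.673. Those loci had been chosen by the authors' test on the same libraries and need not be typical.

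Ligands of this family are secreted dimers. They bring together type II and type I receptors, which are serine/threonine kinases, and the type I receptor phosphorylates a receptor-activated SMAD: Smad2 or Smad3 after TGF-β or activin, Smad1 or Smad5 after a BMP. These join Smad4 and enter the nucleus, where the Id genes are classical targets of the BMP branch, while Smad6 and Smad7 are induced inhibitors. In adipose tissue, BMP4 is known for committing precursor cells to the adipocyte lineage, whereas TGF-β restrains adipocyte differentiation and drives matrix deposition.

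The loss of Ywhaz, which encodes 14-3-3ζ, was visible in every library. Ywhaz was at 18.7, 38.2, 17.1, 14.5 and 24.1 FPKM in 14-3-3ζKO replicates 1 to 5, and at 118, 94.2, 100.4, 118, 95.4 and 117 FPKM in WT replicates 1 to 6. The groups did not overlap. The difference on the log2(FPKM + 1) scale was -2.28 ± 0.24 (SE; exact two-sided permutation test, p = 0.00216, adjusted p = 0.0399). That unadjusted p is the smallest that 462 splits allow. The authors' test on these libraries had called the Ywhaz locus, so its p-values are not independent evidence. WT replicates 1, 3 and 4 stood apart from all other libraries in macrophage genes, with Cd68, a lysosomal protein of macrophages, at 461, 499 and 476 FPKM, against 41.8 to 84.9 FPKM in the other WT libraries. Since the 45 genes have group values only, the WT values cannot be given without these 3 libraries. In bulk tissue, fewer cells of a type and less RNA per cell cannot be told apart.

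Across the pathway, the ligand Tgfb1, the follistatin-related Fstl1 and the BMP-family ligand Bmp3 were lower in 14-3-3ζKO tissue, while the 3 Id genes, Smad1, Smad6, the co-receptor Tgfbr3 and the antagonist Chrd were higher. Smad2, Smad3, Smad4 and most receptors stood at nearly equal levels. Of the 42 genes with a mean of at least 1 FPKM, 8 were at least 1.5-fold higher on the log2(FPKM + 1) scale (19.0%), beside 17.5% of all 15245 loci over the same floor. In the other direction 7 were at least 1.5-fold lower (16.7%), beside 10.5% of all loci. At 2-fold, 1 gene was higher (2.38%, beside 9.67% of loci) and 2 were lower (4.76%, beside 4.31% of loci). The share of higher genes was close to that of all loci, and so is not a result about the pathway. The median difference was 0.04 over the 42 genes, the same value as over all loci. Id2 lay just inside the 1.5-fold line and Bmp4 (0.42) was the nearest outside it on the higher side, while Tgfbr1 (-0.64) and Bmp1 (-0.45) were the nearest pair on the lower side. Inhba, Grem1 and Acvr2b had means under 1 FPKM.

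**Figure D1:**
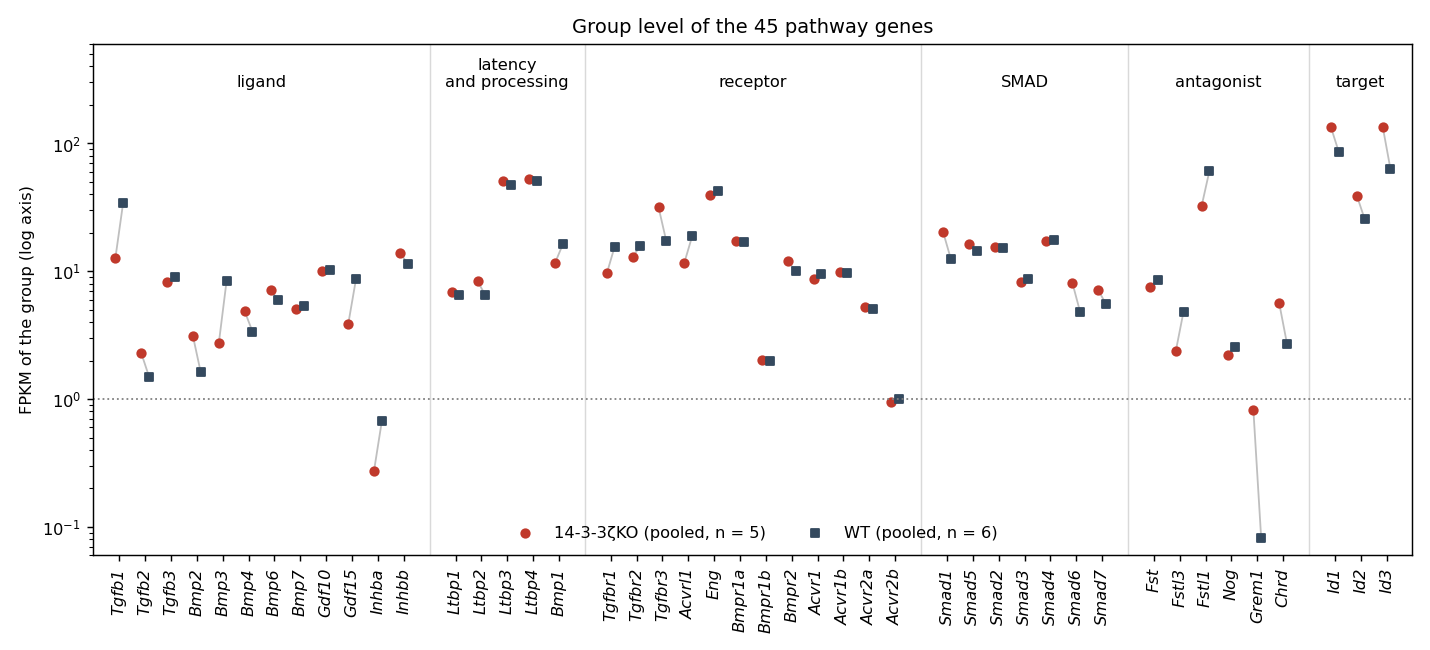
Group level of the 45 pathway genes by role, in FPKM on a log axis. Red circles are the pooled value of the 5 14-3-3ζKO libraries and dark squares that of the 6 WT libraries, the dotted line marks 1 FPKM, and no error is available. Id1 and Id3 stood highest in 14-3-3ζKO tissue (134 and 135 FPKM), and Tgfb1, Bmp3 and Gdf15 show the widest gaps among ligands over 1 FPKM.

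The TGF-β ligands differed from each other in their values. Tgfb1, the isoform most widely made by immune cells, was at 12.8 FPKM in 14-3-3ζKO tissue and 34.5 FPKM in WT tissue, a log2 difference of -1.37. Only 2.5% of all loci had a lower difference than that. Tgfb3 was at 8.22 FPKM in 14-3-3ζKO and 8.99 FPKM in WT tissue, and Tgfb2 at 2.29 and 1.5 FPKM in 14-3-3ζKO and WT tissue. Tgfb1 therefore made up 54.8% of the summed FPKM of the 3 isoforms in 14-3-3ζKO tissue and 76.7% in WT tissue, while the share of Tgfb3 was 35.3% in 14-3-3ζKO and 20.0% in WT tissue. The locus counted for Tgfb3 is 14.9 times as long as the annotated gene, so its value is uncertain.

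Most macrophage markers were lower too. Of 10 such markers, 8 were at least 1.5-fold lower, beside 10.5% of all loci, and none at least 1.5-fold higher, beside 17.5%. Their summed level was 497 FPKM in 14-3-3ζKO and 3223 FPKM in WT tissue, with a median log2 difference of -2.71. Lyz2, named after its value was seen, supplied most of that sum, at 334 FPKM in 14-3-3ζKO and 2311 FPKM in WT tissue. The 2 markers short of the 1.5-fold line were Cd14 (0.29) and Cd163 (-0.42), and no marker was at 0 in either group. Trem2, a lipid-sensing macrophage receptor, was at 12.2, 26.0, 10.6, 17.7 and 9.92 FPKM in 14-3-3ζKO replicates 1 to 5, against 245, 59.5, 391.7, 345, 31.3 and 20.2 FPKM in WT replicates 1 to 6. Its groups overlapped, with WT replicate 6 inside the 14-3-3ζKO range. Emr1, a macrophage surface receptor, ranged from 4.19 to 10.8 FPKM over 14-3-3ζKO libraries and from 15.6 to 199 FPKM over WT libraries, with no overlap. Mpeg1, which encodes perforin-2, ranged from 10.1 to 30.0 FPKM and from 25.9 to 274 FPKM in 14-3-3ζKO and WT libraries. Itgax, the CD11c integrin chain, ranged from 1.25 to 13.1 FPKM and from 3.999 to 108 FPKM in 14-3-3ζKO and WT libraries. WT replicates 1, 3 and 4 were the highest libraries for Cd68, Trem2, Emr1, Mpeg1 and Itgax. The part of macrophages in the value of Tgfb1 was not tested.

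Among BMP-type ligands, Bmp3 was lower and Bmp2 higher in 14-3-3ζKO tissue. Bmp3, an atypical member that opposes other BMPs, was at 2.76 FPKM in 14-3-3ζKO tissue and 8.45 FPKM in WT tissue (log2 difference -1.33). Bmp2, an osteogenic and vascular BMP, was at 3.09 FPKM in 14-3-3ζKO tissue and 1.62 FPKM in WT tissue (0.64). Bmp4, the precursor-committing ligand, was at 4.85 FPKM in 14-3-3ζKO tissue and 3.37 FPKM in WT tissue (0.42). Bmp6, known for inducing hepcidin in the liver, was at 7.13 FPKM in 14-3-3ζKO tissue and 5.95 FPKM in WT tissue. Bmp7, known for promoting brown fat, was at 5.06 FPKM in 14-3-3ζKO tissue and 5.39 FPKM in WT tissue, and Gdf10 (also called BMP3B) was at 9.98 FPKM in 14-3-3ζKO tissue and 10.2 FPKM in WT tissue. These 6 ligands summed to 32.9 FPKM in 14-3-3ζKO and 34.99 FPKM in WT tissue. Within that near-equal sum the share of Bmp3 was 8.41% in 14-3-3ζKO tissue and 24.2% in WT tissue, and that of Bmp2 was 9.41% in 14-3-3ζKO and 4.62% in WT tissue.

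Activin subunits and Gdf15 were measured as well. Inhbb, the activin B subunit expressed by adipocytes, was the most abundant ligand of the list in 14-3-3ζKO tissue at 13.9 FPKM, against 11.5 FPKM in WT tissue. Inhba, the activin A subunit, was scarce at 0.276 FPKM in 14-3-3ζKO and 0.670 FPKM in WT tissue. Gdf15, a stress-induced distant member that signals through a receptor of the hindbrain, was at 3.85 FPKM in 14-3-3ζKO and 8.64 FPKM in WT tissue, a log2 difference of -0.99. Of 21 further ligands, 2 had a mean of at least 1 FPKM. These were named after their values were seen: Gdf3, an adipose ligand of the family, was at 0.0888 FPKM in 14-3-3ζKO tissue and 6.17 FPKM in WT tissue (-2.72), and Inha, the inhibin α subunit, was at 2.94 FPKM in 14-3-3ζKO tissue and 1.90 FPKM in WT tissue (0.44).

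Latent TGF-β binding proteins, which tether the inactive ligand to the matrix, were nearly level between the groups. Ltbp4 was at 52.5 FPKM in 14-3-3ζKO tissue and 50.5 FPKM in WT tissue, and Ltbp3 at 50.9 FPKM in 14-3-3ζKO tissue and 47.7 FPKM in WT tissue. Ltbp1 was at 6.87 FPKM in 14-3-3ζKO tissue and 6.50 FPKM in WT tissue, and Ltbp2, which does not bind the latent ligand, at 8.41 FPKM in 14-3-3ζKO tissue and 6.51 FPKM in WT tissue. Ltbp3 and Ltbp4 together formed most of the family in both groups, with shares of 42.9% and 44.2% in 14-3-3ζKO tissue and 42.9% and 45.4% in WT tissue. Bmp1, which despite its name is a procollagen protease, was at 11.6 FPKM in 14-3-3ζKO tissue and 16.3 FPKM in WT tissue (-0.45). In a further list of 11 genes that store or activate latent TGF-β, 8 were over the floor (median -0.38, beside 0.04 over all loci). Of these, 3 were at least 1.5-fold lower, beside 10.5% of all loci, and none higher, beside 17.5%. The 3 were Fbn1 (fibrillin-1, 4.05 FPKM in 14-3-3ζKO and 13.0 FPKM in WT tissue), Mmp2 (a gelatinase, 11.5 FPKM in 14-3-3ζKO and 32.6 FPKM in WT tissue) and Lrrc33 (which presents latent TGF-β on macrophages, 16.3 FPKM in 14-3-3ζKO and 37.9 FPKM in WT tissue). Itgav, the integrin αV chain, was at 19.1 FPKM in 14-3-3ζKO and 13.1 FPKM in WT tissue (0.51).

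Most of the receptors differed little, with a median log2 difference of 0.01 over the 11 receptors above the floor. The exceptions were Tgfbr3, Tgfbr1 and Acvrl1. Tgfbr3 (betaglycan), a co-receptor that presents TGF-β and lets inhibin block activin, was at 31.7 FPKM in 14-3-3ζKO tissue and 17.2 FPKM in WT tissue (0.84). Tgfbr1, the type I TGF-β receptor, was at 9.63 FPKM in 14-3-3ζKO tissue and 15.5 FPKM in WT tissue (-0.64). Its type II partner Tgfbr2 was at 13.0 FPKM in 14-3-3ζKO tissue and 15.9 FPKM in WT tissue (-0.27). Tgfbr2 thus stayed short of the 1.5-fold line.

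Acvrl1, a type I receptor of endothelial cells for BMP9 and BMP10, was at 11.7 FPKM in 14-3-3ζKO tissue and 18.8 FPKM in WT tissue (-0.64). An exon of Acvrl1 overlaps Gm16031 on the other strand, and exons of Bmp4, Bmp6, Ltbp2, Ltbp3 and Bmpr1a overlap other genes in the same way, so these values are uncertain too. Eng (endoglin), its co-receptor, was at 39.7 FPKM in 14-3-3ζKO tissue and 42.7 FPKM in WT tissue, in a row that also covers Ak1, so its value is uncertain. Of 10 endothelial markers, 4 were at least 1.5-fold higher, beside 17.5% of all loci, and none was 1.5-fold lower, beside 10.5%. The part of endothelial cells in the value of Acvrl1 was not tested. The median of the 10 markers was 0.26, with a summed level of 434 FPKM in 14-3-3ζKO and 259 FPKM in WT tissue and no marker at 0. Cldn5, a tight junction protein of vessels, was at 206 FPKM in 14-3-3ζKO and 84.5 FPKM in WT tissue. Vwf (von Willebrand factor), Emcn (endomucin) and Robo4, a vascular guidance receptor, had log2 differences of 0.97, 0.95 and 0.94. Cdh5, the endothelial cadherin, was named after its value was seen and stood at 38.2 FPKM in 14-3-3ζKO and 38.4 FPKM in WT tissue. The 6 markers short of the 1.5-fold line lay between -0.10 and 0.30 on the log2 scale.

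The other BMP and activin receptors had almost equal group values. Bmpr1a, a type I BMP receptor, was at 17.3 FPKM in 14-3-3ζKO tissue and 16.8 FPKM in WT tissue. Its relative Bmpr1b was at 2.04 FPKM in 14-3-3ζKO tissue and 1.97 FPKM in WT tissue. Of the summed type I BMP receptors, Bmpr1a made up 43.5% in 14-3-3ζKO and 35.7% in WT tissue. Acvrl1 made up 29.4% in 14-3-3ζKO tissue and, as the largest share there, 39.99% in WT tissue. The type II receptor Bmpr2 was at 12.0 FPKM in 14-3-3ζKO and 10.005 FPKM in WT tissue, in a row shared with Fam117b. Acvr1, a type I receptor for BMPs, was at 8.78 FPKM in 14-3-3ζKO and 9.47 FPKM in WT tissue. The type I activin receptor Acvr1b was at 9.81 FPKM in 14-3-3ζKO and 9.78 FPKM in WT tissue. The type II activin receptors Acvr2a and Acvr2b were at 5.26 and 0.956 FPKM in 14-3-3ζKO tissue and at 5.09 and 1.002 FPKM in WT tissue. The locus of Acvr2a is 5.7 times as long as the gene, which makes its value uncertain. Of 9 further receptors and co-receptors, 5 were over the floor (median 0.25). Of these, 1 was at least 1.5-fold higher, beside 17.5% of all loci, and none lower, beside 10.5%. The 1 was Tmeff1, a membrane protein with follistatin-like domains, at 12.3 FPKM in 14-3-3ζKO and 5.72 FPKM in WT tissue. Acvr1c, a type I receptor of adipocytes, was at 11.4 FPKM in 14-3-3ζKO and 9.43 FPKM in WT tissue, and the BMP co-receptors Rgma and Rgmb had log2 differences of 0.36 and -0.33.

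**Figure D2:**
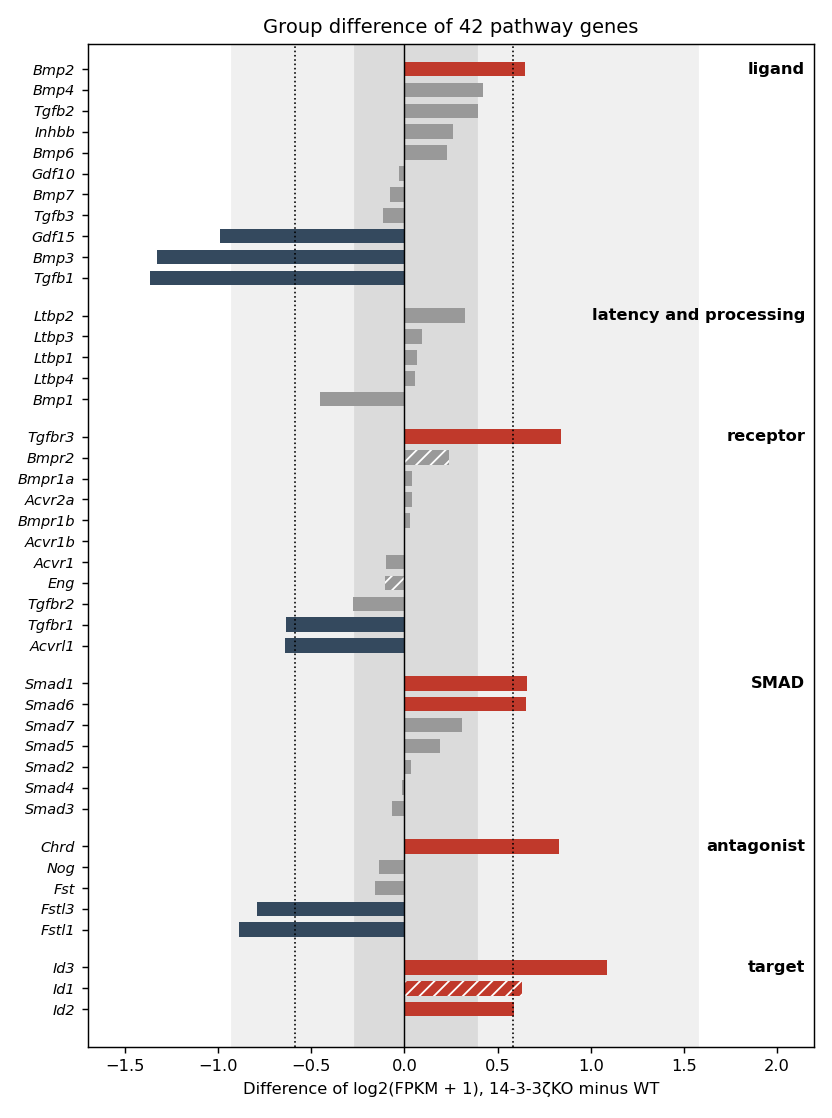
Difference of log2(FPKM + 1), 14-3-3ζKO minus WT, for the 42 genes with a mean of at least 1 FPKM, grouped by role. Red and dark bars lie past the dotted 1.5-fold lines, hatched bars are rows that also cover another gene, and the shading spans the central 50% (dark) and 90% (light) of all 15245 loci. Tgfb1 (-1.37), Bmp3 (-1.33) and Gdf15 (-0.99) lie below the light band and no gene lies above it.

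Of the SMADs, the TGF-β and activin effectors were level and the BMP-linked Smad1 and Smad6 were higher in 14-3-3ζKO tissue. Smad2 was at 15.5 FPKM in 14-3-3ζKO and 15.1 FPKM in WT tissue, Smad3 at 8.31 FPKM in 14-3-3ζKO and 8.76 FPKM in WT tissue, and the common partner Smad4 at 17.4 FPKM in 14-3-3ζKO and 17.6 FPKM in WT tissue. Smad1 was at 20.4 FPKM in 14-3-3ζKO and 12.5 FPKM in WT tissue (0.66), and its paralogue Smad5 at 16.4 FPKM in 14-3-3ζKO and 14.3 FPKM in WT tissue (0.19). Smad1 made up 26.1% of the summed FPKM of these 5 SMADs in 14-3-3ζKO tissue and 18.4% in WT tissue. The inhibitory Smad6, which preferentially blocks BMP signals, was at 8.13 FPKM in 14-3-3ζKO and 4.82 FPKM in WT tissue (0.65), and Smad7, which blocks both branches, at 7.11 FPKM in 14-3-3ζKO and 5.56 FPKM in WT tissue (0.31). Of 14 SMAD regulators and partners, 12 were over the floor. None was 1.5-fold higher, beside 17.5% of all loci, or lower, beside 10.5%. The widest difference among them was that of the SMAD co-repressor Ski, at 21.3 FPKM in 14-3-3ζKO and 31.1 FPKM in WT tissue (-0.52). Fkbp1a, which keeps type I receptors inactive, was at 220.4 FPKM in 14-3-3ζKO tissue and 171 FPKM in WT tissue (0.36). The ubiquitin ligases Smurf2 and Nedd4l had log2 differences of -0.30 and -0.29.

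Among the antagonists, Fstl1 and Fstl3 were lower and Chrd was higher in 14-3-3ζKO tissue. Fstl3, which neutralizes activins and myostatin, was at 2.38 FPKM in 14-3-3ζKO and 4.85 FPKM in WT tissue (-0.79), and its relative Fst (follistatin) at 7.60 FPKM in 14-3-3ζKO and 8.61 FPKM in WT tissue (-0.16). Fstl1, a secreted glycoprotein of stromal cells with a follistatin-like domain, was at 32.5 FPKM in 14-3-3ζKO and 61.0 FPKM in WT tissue (-0.89). Chrd (chordin), which sequesters BMPs, was at 5.601 FPKM in 14-3-3ζKO and 2.71 FPKM in WT tissue (0.83). Nog (noggin) was at 2.22 FPKM in 14-3-3ζKO and 2.55 FPKM in WT tissue (-0.14). Grem1 (gremlin 1) was scarce in both groups, at 0.819 FPKM in 14-3-3ζKO and 0.0823 FPKM in WT tissue. The locus of Fstl3 is 2.55 times as long as the gene, and exons of Fstl3 and Chrd overlap genes on the other strand, so both values are uncertain.

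Among 14 other extracellular antagonists, 8 were over the floor (median 0.04). Of these, 1 was at least 1.5-fold higher, beside 17.5% of all loci, and none lower, beside 10.5%. Crim1, Chrdl1 and Bmper, which bind BMPs, had log2 differences of -0.40, -0.39 and -0.27, and Twsg1, a partner of chordin, one of 0.36. These 4, each short of the 1.5-fold line, gave no common direction.

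The Id genes encode helix-loop-helix proteins that hold back differentiation factors by forming inactive dimers. Each of the 3 was higher in 14-3-3ζKO tissue. Id3 was at 135 FPKM in 14-3-3ζKO tissue and 63.1 FPKM in WT tissue (1.09), and 8.7% of all loci lay higher. Id1 was at 134 FPKM in 14-3-3ζKO tissue and 86.05 FPKM in WT tissue (0.63). Its row also covers H13, a signal peptide peptidase gene, and its locus is 65.5 times as long as the gene, so its value is uncertain. Id2 was at 39.1 FPKM in 14-3-3ζKO tissue and 25.7 FPKM in WT tissue (0.59). Their sum was 308 FPKM in 14-3-3ζKO and 175 FPKM in WT tissue, the highest summed level of any role in both groups. In WT tissue the receptors came next at 163 FPKM, so that rank rests on the uncertain value of Id1. Of 10 other BMP target genes, 6 were over the floor (median 0.25). At least 1.5-fold higher were 2, beside 17.5% of all loci, and 1 was lower, beside 10.5% of all loci. These 3 were named after their values were seen. Id4 was at 4.87 FPKM in 14-3-3ζKO and 1.88 FPKM in WT tissue (1.03), Atoh8, a helix-loop-helix factor, at 6.73 FPKM in 14-3-3ζKO and 3.14 FPKM in WT tissue (0.90), and Runx2, a factor of bone formation, at 2.57 FPKM in 14-3-3ζKO and 5.77 FPKM in WT tissue (-0.92). Hey1, a Notch and BMP target, was at 5.98 FPKM in 14-3-3ζKO and 4.28 FPKM in WT tissue.

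SMAD complexes read short DNA elements, and the known BMP element joins a GC-rich site for Smad1 and Smad5 to a site for Smad4. Its letters, GGCGNC followed by any 5 bases and GTCT, were searched on both strands of the 2000 bases upstream of the annotated gene start in NCBIM37. The element occurred at 2 of the 45 genes, Id1 and Acvrl1, beside 0.497% of 22355 protein-coding genes. The 2 matches are shown because these genes lay past the 1.5-fold line on opposite sides; capitals mark the match, with 25 bases on each side, read along the strand of the gene, which is the plus strand for both.

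Id1: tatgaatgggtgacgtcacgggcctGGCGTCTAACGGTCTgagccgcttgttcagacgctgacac
Acvrl1: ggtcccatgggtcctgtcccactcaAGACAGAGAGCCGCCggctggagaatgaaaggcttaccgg

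The Id1 stretch is chr2:152560917-152560981 and its match runs from -1045 to -1031, counted from the gene start. The Acvrl1 stretch is chr15:100957767-100957831, with the match on the opposite strand, from -1161 to -1147. The shorter GGCGCC occurred at 20 of the 45 genes (44.4%), beside 20.4% of all genes. Id1, Id2, Smad6 and Smad7 were among the 20 and Id3 was not. Genes that were lower or nearly level, such as Tgfbr1, Acvr1 and Acvr1b, were among the 20 as well. The CAGA box of Smad3 and Smad4 (AGCCAGACA) occurred at 1 of the 45, Smad5, beside 3.23% of all genes. A match describes letters in a window and is not evidence of binding.

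Of 20 TGF-β target genes listed, 19 were not among the 45 and all 19 were over the floor. At least 1.5-fold lower were 6, beside 10.5% of all loci, and at least 1.5-fold higher were 3, beside 17.5% of all loci, with differences on both sides of a median of -0.01. Col1a1 and Col3a1, fibrillar collagen chains, were at 10.3 and 40.2 FPKM in 14-3-3ζKO and at 60.0 and 174 FPKM in WT tissue. Fn1 (fibronectin) was at 13.1 FPKM in 14-3-3ζKO and 40.1 FPKM in WT tissue (-1.54), and Timp1, a metalloproteinase inhibitor, at 9.41 FPKM in 14-3-3ζKO and 29.0 FPKM in WT tissue (-1.53). The other two, Col1a2 and the crosslinking enzyme Loxl2, had log2 differences of -1.353 and -1.196 and were named after their values were seen. So were Ctgf and Tagln, which were higher. Ctgf, a matricellular protein, was at 32.2 FPKM in 14-3-3ζKO and 19.7 FPKM in WT tissue (0.68), and Tagln, an actin-binding protein of smooth muscle, at 128 FPKM in 14-3-3ζKO and 52.3 FPKM in WT tissue (1.27).

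Col1a1 was the target gene with values per library. It was at 1.65, 9.58, 10.7, 14.5 and 14.9 FPKM in 14-3-3ζKO replicates 1 to 5, and at 105, 13.5, 63.3, 109, 48.0 and 21.1 FPKM in WT replicates 1 to 6. The groups overlapped only through WT replicate 2, which lay below 14-3-3ζKO replicates 4 and 5. Calculated over libraries, the difference of mean log2(FPKM + 1) was -2.32 ± 0.68 (SE; exact two-sided permutation test, p = 0.01515, adjusted p = 0.0407). Col1a1 has values per library only because the authors' test on the same libraries had called its locus. The adjustment ran over loci chosen in that way alone. The p-values of Col1a1, by either test, are therefore not independent evidence of a difference. Without WT replicates 1, 3 and 4 the difference was -1.39 (adjusted p = 0.213, exact permutation test). That test could not reach the threshold there, since even Ywhaz, with its groups apart, had an adjusted p of 0.118. By limma on the same libraries, the adjusted p was 0.168 for Col1a1 and 0.00824 for Ywhaz. Over all libraries, limma gave Col1a1 an adjusted p of 0.0155. Without these 3 libraries Col1a1 was thus called by neither test. They had been picked by their values and are the 3 highest WT libraries for Col1a1. Leaving them out therefore had to shrink the difference, and no conclusion is drawn from the lost call. Leaving out 1 library at a time gave Col1a1 differences of -2.66 to -1.85. Its adjusted p in the exact permutation test was then over 0.05 without WT replicate 1 or 4 or any single 14-3-3ζKO replicate (up to 0.0745). It stayed under 0.05 without WT replicate 2, 3, 5 or 6. For Ywhaz it was over 0.05 without 14-3-3ζKO replicate 1, 2, 4 or 5, and 0.0455 without replicate 3. Fewer libraries leave fewer splits, though equally many for each library of the same group.

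**Figure D3:**
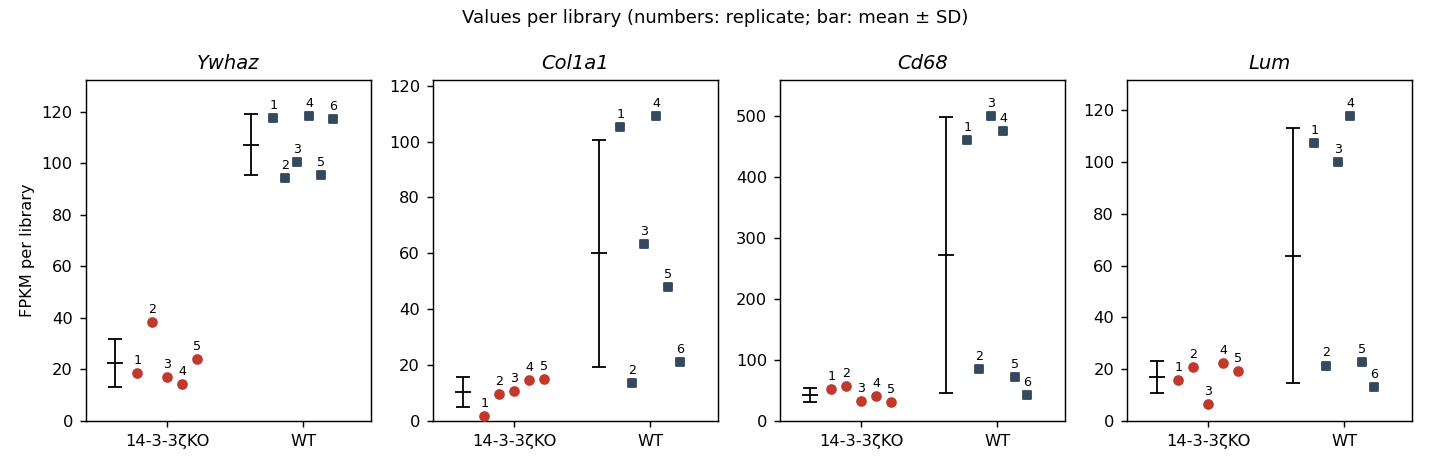
FPKM per library of Ywhaz, Col1a1, Cd68 and Lum in the 5 14-3-3ζKO libraries (red circles) and the 6 WT libraries (dark squares), with replicate numbers beside the points and the mean ± SD of each group to their left. WT replicates 1, 3 and 4 are the 3 highest libraries for Col1a1, Cd68 and Lum, while for Ywhaz all WT libraries (94.2 to 118 FPKM) lie above all 14-3-3ζKO libraries (14.5 to 38.2 FPKM).

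Markers of the other cell types in this tissue were set beside the pathway. Of 10 stromal progenitor markers, 9 were over the floor (median -0.25), with summed levels of 1040.0 FPKM in 14-3-3ζKO and 1008 FPKM in WT tissue. At least 1.5-fold lower were 3, beside 10.5% of all loci, and none was higher, beside 17.5%. Lum (lumican, a matrix proteoglycan) was at 15.9, 20.9, 6.57, 22.3 and 19.2 FPKM in 14-3-3ζKO replicates 1 to 5 and at 107, 21.4, 100.2, 118, 22.9 and 13.1 FPKM in WT replicates 1 to 6. Its groups overlapped, and its difference missed the exact permutation test (-1.46, adjusted p = 0.0991). Pdgfra, the progenitor receptor for platelet-derived growth factor, was at 8.65 FPKM in 14-3-3ζKO and 17.4 FPKM in WT tissue, and Cd248 (endosialin) at 6.21 FPKM in 14-3-3ζKO and 16.01 FPKM in WT tissue. Ly6a, a surface marker of the same cells, was at 417 FPKM in 14-3-3ζKO and 315 FPKM in WT tissue, in a row that also covers Ly6c1. The list was mixed, with 3 of the 9 at positive differences and a slightly higher sum in 14-3-3ζKO tissue. The part of these cells in the values of Fstl1, Fbn1 and the collagens was not tested.

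Mature adipocyte markers had a median of 0.42 over 10, with 4 at least 1.5-fold higher (beside 17.5% of all loci) and 1 lower (beside 10.5%). Cfd (adipsin) was at 7755 FPKM in 14-3-3ζKO and 1899 FPKM in WT tissue, and Fabp4, the fatty acid carrier, at 31136 FPKM in 14-3-3ζKO and 13823 FPKM in WT tissue. Retn (resistin) had a log2 difference of 1.08 and Lep (leptin) of -1.05. Mesothelial markers had a median of 0.94 over 9, with 7 at least 1.5-fold higher (beside 17.5% of all loci) and none lower (beside 10.5%). Their summed level was 596 FPKM in 14-3-3ζKO and 187 FPKM in WT tissue, and the keratins Krt8 (2.28), Krt19 (1.58) and Krt18 (1.40) and mesothelin (Msln, 0.95) had the largest differences. The Id genes, Smad6, Bmp2 and Chrd were higher as well. Besides the 7 mesothelial markers, 4 of 10 endothelial, 4 of 10 adipocyte and 3 of 8 lymphocyte markers were at least 1.5-fold higher. The share over all loci was 17.5%. The part of any of these cells in the values of those pathway genes was not tested.

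Of 10 smooth muscle and pericyte markers, 2 were at least 1.5-fold higher and none lower (median 0.25). The shares over all loci were 17.5% higher and 10.5% lower, so the count of 2 lay near the background. The 2 higher markers were Tagln, which is on this list too, and Cnn1 (calponin, 0.65). Pdgfrb, a pericyte receptor, was at -0.46 and Acta2, smooth muscle actin, at 0.39. Of 8 lymphocyte markers over the floor, 3 were at least 1.5-fold higher (beside 17.5% of all loci) and none lower (median 0.28). Among the 3 were the B cell receptor chains Cd79b (1.06) and Cd79a (0.90).

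**Figure D4:**
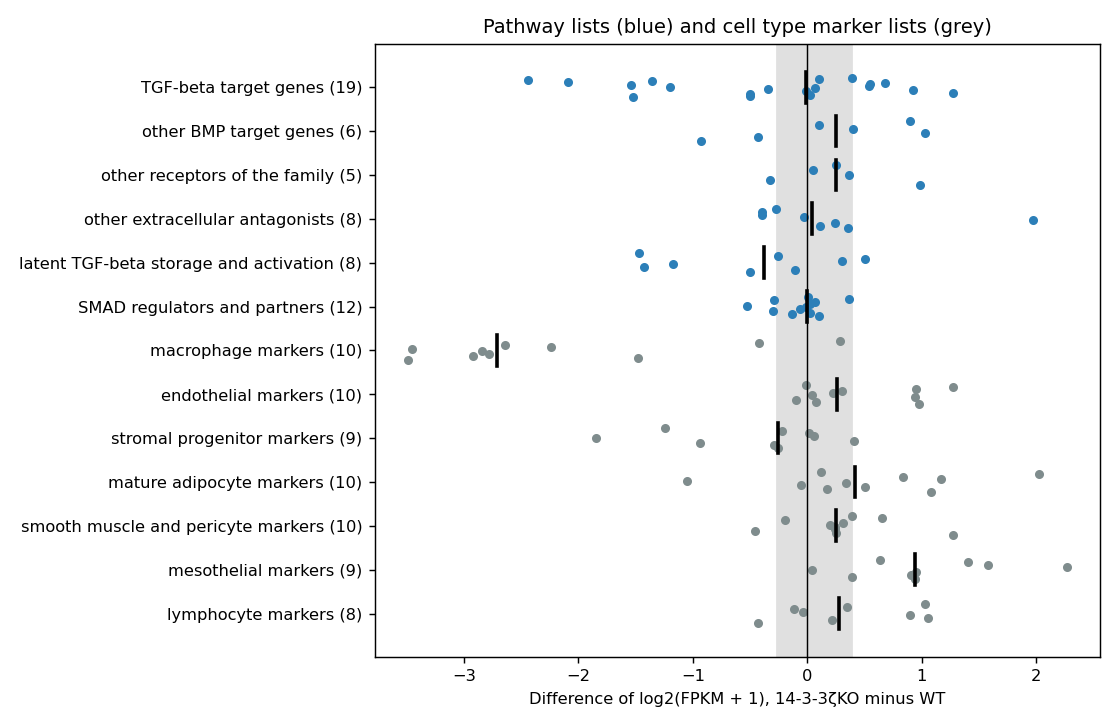
Difference of log2(FPKM + 1), 14-3-3ζKO minus WT, of each gene over the floor in the pathway lists (blue) and the cell type marker lists (grey), with the number of genes in brackets, the list median as a black line and the central 50% of all loci shaded. The macrophage list has the lowest median (-2.71) and the mesothelial list the highest (0.94) of the lists drawn, while the TGF-β targets spread from -2.44 to 1.27 around a median of -0.01.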

How the data were processed

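The authors made the deposited FPKM with TopHat2 2.0.11, Cufflinks 2.2.0 and Cuffdiff on NCBIM37, as the submitters' processing notes list them. The scaling between libraries is not stated there. For 42815 loci the deposited table holds 1 pooled FPKM a group; a second table gives single libraries at the 86 loci that the authors' own test had called. The fold, test statistic, p-value and q-value columns of that comparison were not used. Members were matched by symbol, taking the locus of highest mean FPKM. The difference was that of log2(FPKM + 1), 14-3-3ζKO minus WT. Loci with a mean of both group values of at least 1 FPKM (15245) formed the background. Values per library were compared by an exact two-sided permutation test adjusted by Benjamini-Hochberg across those 86 (numpy 2.4.6, pandas 2.3.3, python 3.11.15), with limma 3.58.1 (R 4.3.3) as an alternative. Both procedures were also run on simulated data with equal spread in both groups. The WT libraries here spread more widely than the 14-3-3ζKO libraries, so that run checks the code only. Those loci had been chosen on the same libraries, and the labels do not say more of how replicates were taken, so p-values measure only the spread between these samples and are not independent evidence. Members and gene lists were chosen with earlier results of these data known. All members were named, and of each further list the genes with the largest differences (at most 4) among those with a mean of at least 5 FPKM; genes named outside this rule are marked as chosen after their values were seen. Single values of a few listed genes are not reported here. Gene positions came from GENCODE vM1 (NCBIM37, counted from 1). Alternatives were another pseudocount, other floors, recentring, summed loci, rows of several genes or overlapping genes left out, libraries left out and the replicate number as a block. Plots were drawn with matplotlib 3.10.9.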

Additional observations from a re-analysis of the deposited data

How the results depend on the processing

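For the group values, 7 alternatives were run, 1 of them (leaving out the 13 genes whose exons overlap another gene, whose locus is over 2 times the gene or whose row covers another gene) chosen after seeing the data. None turned the direction of a gene past the 1.5-fold line, and Id2 alone crossed that line, when differences were recentred on the median of all loci. With a pseudocount of 0.1, 2 genes were at least 2-fold higher instead of 1 and 3 at least 2-fold lower instead of 2, and 3 were at least 2-fold lower with recentring. The median of the antagonists was -0.52 with a floor of 5 FPKM, against -0.16, and that of the Id genes was 0.84 without rows of several genes and 0.84 without the 13 genes, against 0.63; fewer genes were counted in each. Over loci with a gene symbol, a background chosen after seeing the data, 15.7% were at least 1.5-fold higher and 10.7% lower. Leaving out 1 library gave a Ywhaz difference of -2.48 to -2.15, with adjusted p-values of 0.0175 to 0.0739 in the exact permutation test, over 0.05 without 14-3-3ζKO replicate 1, 2, 4 or 5. Without WT replicates 1, 3 and 4 it was -2.21 (adjusted p = 0.118, exact permutation test, with the raw p at the smallest so few libraries allow), and limma called Ywhaz in each fit. Replicate numbers did not pair the libraries: of 5 same-numbered pairs, 1 had a correlation of deviations over 0.1 and none was best with its own number. With the replicate block in limma the Ywhaz difference was -2.25. Group values allow no library to be left out for any of the 45 genes, and the depth behind them is unknown.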
